A study of Mus musculus with 4 samples.

Results

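The 33 genes described here build, modify, export and break down the ceramides of the epidermal barrier, and were taken by gene symbol from a table of 56493 genes measured in mouse epidermis. All 33 symbols were found, each in 1 row. The series holds 4 libraries of epidermis that was separated from shaved dorsal skin with sodium thiocyanate. 2 libraries came from Stim1/2 cKO mice, in which floxed Stim1 and Stim2 are deleted by a Cre recombinase under the keratin 14 promoter (K14-Cre), and 2 came from control mice with the floxed alleles, Stim1/2fl/fl. STIM1 and STIM2 sense how much calcium the endoplasmic reticulum holds and gate calcium entry through the plasma membrane when it runs low, and the comparison asks how epidermal RNA differs when both are lost. K14-Cre acts in keratin 14-expressing epithelial cells and their descendants, so other cells left in the epidermal sheet keep both genes. Age and sex are not given in the sources used here, and neither is whether each library came from its own mouse. The p-values therefore measure the spread between these libraries, part of which may be technical.

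Ceramides are a sphingoid base joined to a fatty acid. Serine palmitoyltransferase makes the base, elongases lengthen the fatty acid to very long chains, and ceramide synthases join the parts. In the upper epidermis the longest chains are hydroxylated at the omega end and esterified to linoleic acid, which gives acylceramides, lipids that occur mainly in skin. They are stored as glucosylceramides in lamellar granules, released between the cornified cells and partly bound to the cornified envelope after lipoxygenases oxidise the linoleate. Inherited loss of several of these enzymes and transporters causes ichthyosis, a scaling disorder with a leaky skin barrier.

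The libraries were shallow, with total counts of 118858 to 322426, so that a count of 0 allows up to 3 counts, which are worth 9.58 to 33.7 CPM (counts scaled to a common total of the counts in tested genes, with TMM factors). That floor is highest in cKO replicate 2, the shallowest library, and covers counting error only. Stim1 had 23 and 6 counts in the cKO libraries against 24 and 62 in control, and Stim2 had 0 and 1 against 3 and 18. In CPM, Stim1 was lower in each cKO library than in each control library but did not pass the threshold (edgeR quasi-likelihood test, adjusted p 0.671). Stim2 was too rare to be tested, and at 3 counts or fewer its level in both cKO libraries could not be told from that in control replicate 1. The keratinocyte markers Krt5, Krt14 and Krt10 were present in every library. Replicates differed by more than counting noise, with a chi-square per degree of freedom of 5.10 between the cKO and 4.55 between the control libraries. In whole tissue, fewer cells of a type and less RNA per cell cannot be told apart.

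Of the 33 genes, 22 had enough counts to be compared between cKO and control, and 0 of these 22 passed an adjusted p of 0.05 (edgeR quasi-likelihood test with Benjamini-Hochberg adjustment). The other 11 were under the count filter and were not tested. Over all 4243 genes tested, 0.848% were called, 28 (0.660%) higher and 8 (0.189%) lower in cKO. At an unadjusted p under 0.05 there were 5 of the 22 genes (Sult2b1, Elovl7, Alox12e and Degs1 with higher and Acer1 with lower cKO values), where 8.39% of all tested genes lay under that value. DESeq2 and limma-voom also called 0 of the 22 genes, and at an unadjusted p under 0.05 they had 1 and 7. The share of 8.39% belongs to the edgeR fit. It was not worked out for DESeq2 and limma-voom, so their counts cannot be read as few or many. The log2 fold change was above 0 in 15 of the 22 genes and below 0 in 7, with a median of 0.40, beside 50.4% above 0 and a median of 0.01 over all genes tested. Both cKO values lay above both control values in 8 of the 22, as they did in 18.9% of all tested genes, and below them in 1, beside 19.6% of all tested genes.

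Summed over all 33 genes, the level was 4917 and 5035 CPM in the cKO libraries and 2711 and 4362 CPM in the control libraries. Both cKO sums were higher than both control sums, and the control libraries lay further apart than the cKO libraries. Much of the separation came from Elovl4, the most abundant of the genes. Without Elovl4 the sums were 3457 and 3169 CPM in cKO and 1980 and 3260 CPM in control, and the groups overlapped.

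**Figure D1:**
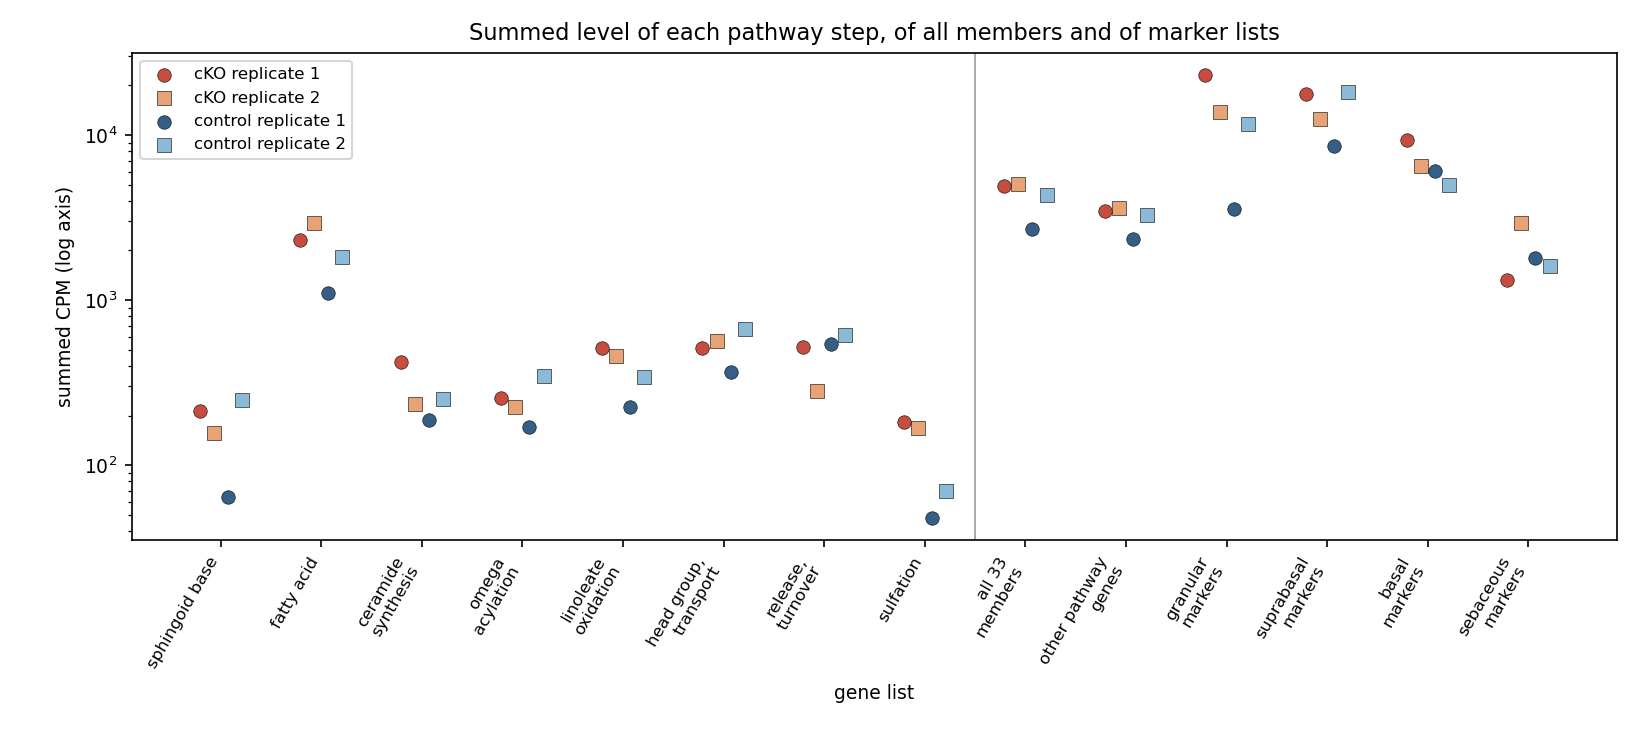
Summed CPM (log axis) of the 8 pathway steps, of all 33 genes and of lists of other genes, with 1 point per library. Control replicate 1 is the lowest of the 4 libraries in 7 of the 8 steps and in the sum of all 33 genes, where it has 2711 CPM.

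How far each gene's values reached from library to library, including the 11 genes that were too rare to test, is shown gene by gene in the plot of all members. Levels of different genes are compared here per kilobase of exon, as the mean over the 4 libraries. Elovl4 was highest at 426 CPM per kilobase, followed by Acer1 (114), Elovl1 (85.7), Alox12e (82.8) and Slc27a4 (72.7). Sgms2 (0.719), Cers2 (1.31) and Degs2 (1.48) were lowest, with 4, 4 and 2 counts in all 4 libraries together. The libraries read the 3' end of transcripts, so division by length lowers long genes, and Abca12, with 186 CPM, had 12.6 CPM per kilobase.

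**Figure D2:**
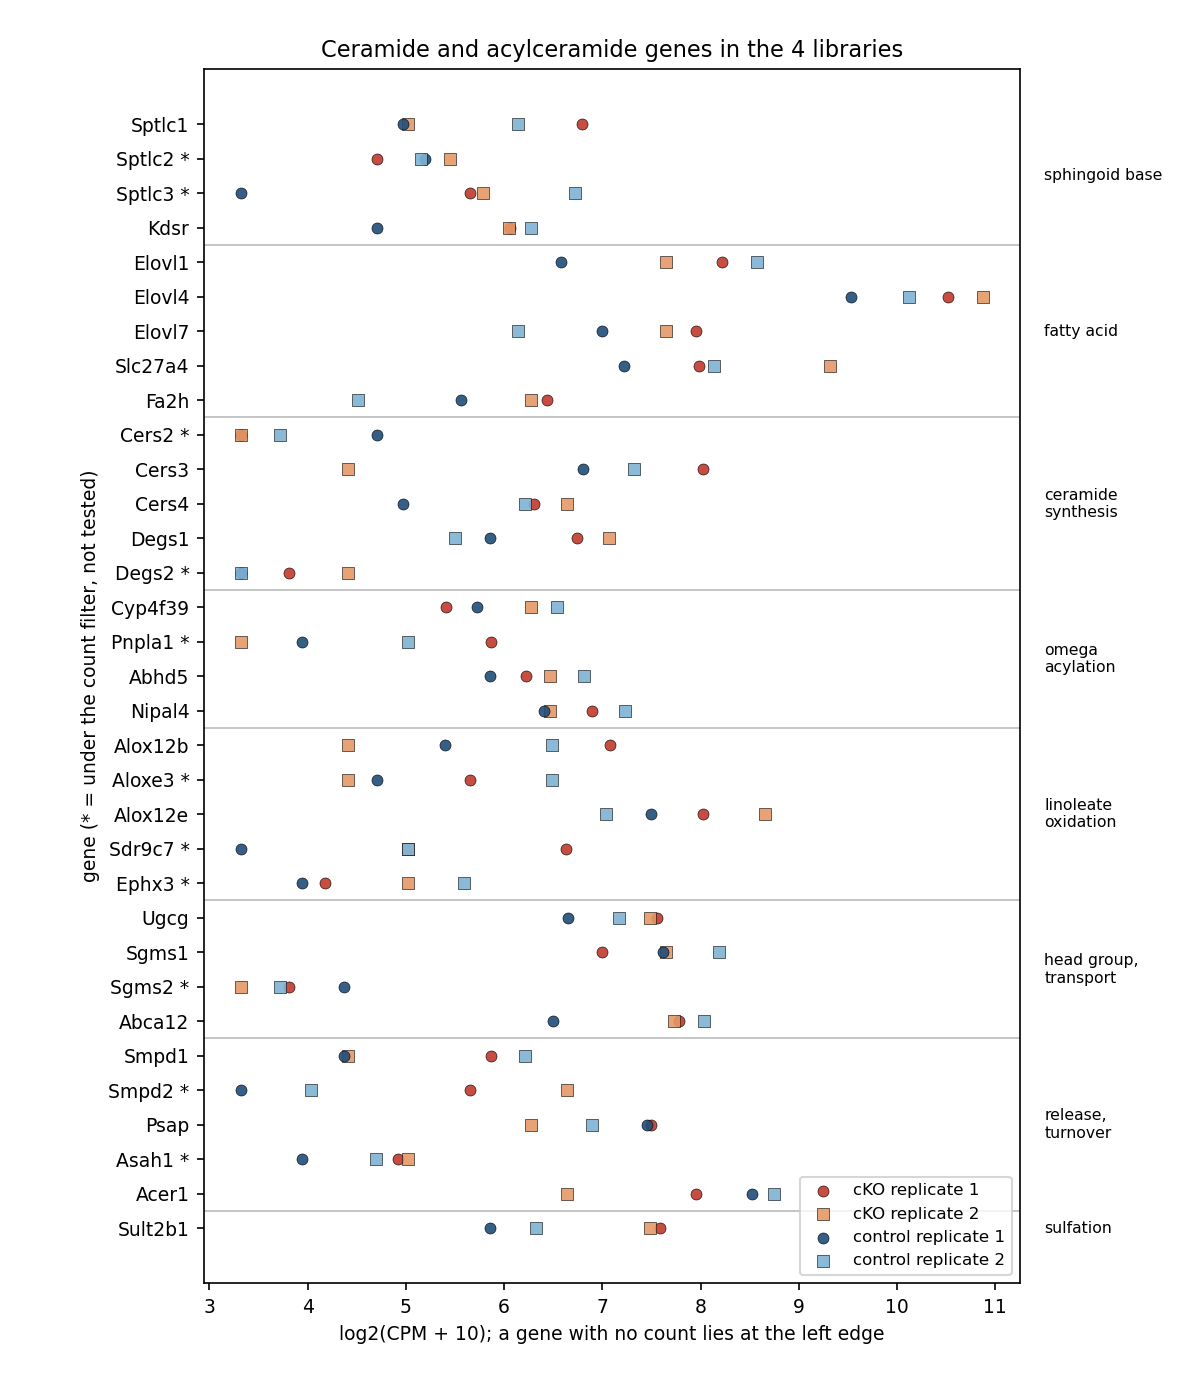
Level of each of the 33 genes as log2(CPM + 10), with 1 point per library and the genes ordered by pathway step. The asterisk marks the 11 genes under the count filter. Elovl4 lies furthest to the right in all 4 libraries, from 731 to 1866 CPM.

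The first step joins serine with palmitoyl-CoA. Sptlc1 and Sptlc2 encode core subunits of serine palmitoyltransferase, Sptlc3 an alternative subunit that broadens the choice of fatty acid, and Kdsr the reductase that follows. Together the 4 genes had 214 and 157 CPM in cKO and 64.0 and 249 CPM in control. The cKO sums lay between the control sums. Sptlc1 had 25 and 2 counts in the cKO libraries against 4 and 19 in control, or 101 and 22.5 CPM against 21.3 and 60.7 CPM, so each group had a high and a low library. Its log2 fold change was 0.68 (SE 0.79, edgeR adjusted p 0.936), and it became -0.94 without cKO replicate 1. Kdsr had 56.6 and 56.2 CPM in cKO and 16.0 and 67.1 CPM in control. The cKO values of Kdsr were close together and inside the range of the controls. Sptlc3 had 10 and 4 counts in the cKO libraries against 0 and 30 in control, and Sptlc2 had 3 to 8 counts in every library. The 0 of Sptlc3 in control replicate 1 allows up to 16.0 CPM, against 95.8 CPM in control replicate 2.

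Genes that prepare the fatty acid had the highest sum, 2305 and 2945 CPM in cKO against 1110 and 1817 CPM in control. Both cKO sums were above both control sums. All 5 genes of this step were tested, all 5 had a log2 fold change above 0 (median 1.02), and none passed the threshold. Elovl4, the elongase that makes the ultra-long chains of acylceramides, had 1460 and 1866 CPM in cKO and 731 and 1102 CPM in control. Its groups did not overlap, and its log2 fold change was 0.85 (SE 0.43, 95% interval -0.07 to 1.78, edgeR adjusted p 0.658). Elovl7, an elongase of saturated long-chain fatty acids, had 239 and 191 CPM in cKO against 117 and 60.7 CPM in control, again without overlap. The log2 fold change of Elovl7 was 1.32 (SE 0.50, 95% interval 0.24 to 2.41, edgeR adjusted p 0.457), and it became 0.90 without control replicate 2. Elovl1, which extends saturated and monounsaturated very long chains, had 287 and 191 CPM in cKO and 85.4 and 370 CPM in control. The control replicates of Elovl1 differed 4.34-fold (95% exact interval 2.56 to 7.84, counting error only), and both cKO values lay between them. The fitted log2 fold change of Elovl1 was 0.07 (SE 0.58, edgeR adjusted p 0.997).

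Slc27a4 encodes FATP4, a fatty acid transport protein and acyl-CoA synthetase whose loss causes an ichthyosis with premature birth. It had 243 and 629 CPM in cKO and 139 and 271 CPM in control. The value of cKO replicate 2 stood above the other 3 libraries, and the cKO replicate 1 value lay between the controls. The log2 fold change of Slc27a4 was 1.02 (SE 0.53, edgeR adjusted p 0.671), and it became 0.23 without cKO replicate 2, 1.55 without cKO replicate 1, 0.64 without control replicate 1 and 1.61 without control replicate 2. Fa2h, the fatty acid 2-hydroxylase, had 19 and 6 counts in the cKO libraries against 7 and 4 in control, or 76.8 and 67.4 CPM against 37.4 and 12.8 CPM. Its log2 fold change was the largest of the tested members at 1.61 (SE 0.83, 95% interval -0.18 to 3.40, edgeR adjusted p 0.671), and leaving out control replicate 1 gave 2.46, while leaving out control replicate 2 gave 0.97. Fa2h is also expressed in sebaceous glands. Of 12 sebaceous markers 9 were tested and 0 were called, and their summed level was 1322 and 2933 CPM in cKO and 1809 and 1613 CPM in control, with none at 0 in all libraries. The part of sebaceous cells in the Fa2h values was not tested.

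Ceramide synthases join base and fatty acid, and the DEGS enzymes desaturate or hydroxylate the base. The 5 genes of this step together had 421 and 236 CPM in cKO and 187 and 252 CPM in control, with overlapping groups. Cers3, the synthase that accepts ultra-long chains and is required for acylceramides, had 62 and 1 counts in the cKO libraries against 19 and 47 in control, or 251 and 11.2 CPM against 101 and 150 CPM. The cKO libraries held both the highest and the lowest value of Cers3 and differed 22.3-fold (95% exact interval 3.86 to 895, counting error only). Its log2 fold change was 0.23 (SE 0.72, edgeR adjusted p 0.992), and it became -3.47 without cKO replicate 1 (adjusted p 0.0891) and 0.98 without cKO replicate 2. The adjusted p of Cers3 ranged from 0.0891 to 1.00 over all alternatives. The genotype comparison of Cers3 therefore rests on which cKO library is taken. Degs1, the desaturase that completes the common ceramide base, had 97.0 and 124 CPM in cKO and 48.0 and 35.1 CPM in control. Both cKO values of Degs1 were above both control values, with a log2 fold change of 1.39 (SE 0.63, 95% interval 0.03 to 2.75, edgeR adjusted p 0.582). Cers4, another ceramide synthase, had 68.7 and 89.9 CPM in cKO and 21.3 and 63.9 CPM in control, a log2 fold change of 0.79 (edgeR adjusted p 0.896) that was 0.28 when control replicate 1 was dropped and 1.85 when control replicate 2 was. Cers2, a synthase of very long-chain ceramides, had 0 counts in the cKO libraries against 3 and 1 in control, and Degs2, which adds the hydroxyl group of phytoceramides, had 1 count per cKO library against 0 in control. Both genes were at or under 3 counts in every library, and no fold is given.

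For omega-hydroxylation and the attachment of linoleate, which give acylceramides, differences between genotypes were not resolved. Cyp4f39, the omega-hydroxylase, Pnpla1, the transacylase that attaches linoleate, Abhd5, its lipid droplet cofactor, and Nipal4, a membrane protein mutated in ichthyosis, together had 255 and 225 CPM in cKO and 171 and 348 CPM in control. Both cKO sums lay inside the control range. All 3 tested genes had log2 fold changes below 0, from -0.49 to -0.13, and none passed the threshold. The 95% intervals were wide, from -2.10 to 1.12 for Cyp4f39 and from -1.51 to 1.25 for Abhd5. Cyp4f39 had 32.3 and 67.4 CPM in cKO and 42.7 and 83.0 CPM in control (log2 fold change -0.49, SE 0.75, edgeR adjusted p 0.965). Nipal4 had 109 and 78.7 CPM in cKO and 74.7 and 141 CPM in control, with a log2 fold change of -0.18 (SE 0.56, 95% interval -1.38 to 1.02, edgeR adjusted p 0.992). In both genes the control values enclosed or interleaved with the cKO values. Abhd5 had 64.7 and 78.7 CPM in cKO against 48.0 and 102 CPM in control, a log2 fold change of -0.13. Each of these 3 genes changed sign when control replicate 2 was left out, to 0.15 for Cyp4f39, 0.38 for Nipal4 and 0.56 for Abhd5. Pnpla1 had 12 and 0 counts in the cKO libraries against 1 and 7 in control. A count of 0 in cKO replicate 2 allows up to 33.7 CPM, so its level there could not be told from the 22.4 CPM of control replicate 2.

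Alox12b and Aloxe3 oxidise the linoleate of acylceramides. They are grouped here with Sdr9c7, Ephx3 and Alox12e, and the grouping does not imply that Alox12e acts on acylceramides. This group had 514 and 461 CPM in cKO and 224 and 342 CPM in control, without overlap, and Alox12e, an epidermal 12-lipoxygenase of the mouse, was its most abundant gene. Without Alox12e the other 4 genes had 263 and 67.4 CPM in cKO against 53.4 and 220 CPM in control, and the groups overlapped. Alox12e had 62 and 35 counts in the cKO libraries against 32 and 38 in control, or 251 and 393 CPM against 171 and 121 CPM. Both cKO values of Alox12e were above both control values, and its log2 fold change was 1.12 (SE 0.47, 95% interval 0.12 to 2.13, edgeR adjusted p 0.494). The pair of enzymes that act in sequence on acylceramide gave a different picture. Alox12b had 125 and 11.2 CPM in cKO and 32.0 and 79.8 CPM in control, and Aloxe3 had 40.4 and 11.2 CPM in cKO and 16.0 and 79.8 CPM in control. For both genes the lowest value was that of cKO replicate 2, with 1 count each. In that library 3 counts are worth 33.7 CPM, so neither value could be told from that of control replicate 1. Alox12b had a log2 fold change of 0.44 (edgeR adjusted p 0.980) that became -2.34 without cKO replicate 1, and Aloxe3 was under the count filter. Aloxe3 (69016722 to 69039941) and Alox12b (69047815 to 69060618) are neighbours on the plus strand of chromosome 11, and Alox12e (70206436 to 70213454) lies on the minus strand of the same chromosome, in the coordinates of the deposited table. Sdr9c7, a dehydrogenase that acts on the oxidised linoleate, had 22 and 2 counts in the cKO libraries against 0 and 7 in control. Its ratio of summed counts, scaled to the groups' totals, was 5.10 (95% exact interval 2.13 to 14, counting error only), but 22 of the 24 cKO counts came from cKO replicate 1, the deeper cKO library. In CPM, Sdr9c7 had 89.0 and 22.5 in cKO against 0 and 22.4 in control. The cKO libraries differed 3.96-fold, with a 95% exact interval that included 1 (0.97 to 34.7, counting error only). Without cKO replicate 2 Sdr9c7 passed the filter, with an edgeR adjusted p of 0.219. Ephx3, an epoxide hydrolase of the same branch, had 2 counts per cKO library against 1 and 12 in control, and its high value was that of control replicate 2.

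Ceramides then receive a head group and are loaded into lamellar granules. The summed level of this step was 509 and 562 CPM in cKO and 368 and 671 CPM in control, with the cKO values inside the control range. Ugcg, which makes glucosylceramide, had 178 and 169 CPM in cKO and 90.7 and 134 CPM in control. Its groups did not overlap, and its log2 fold change was 0.61 (edgeR adjusted p 0.854). Sgms1, a sphingomyelin synthase, had 117 and 191 CPM in cKO and 187 and 281 CPM in control, a log2 fold change of -0.67 (SE 0.48, 95% interval -1.70 to 0.37, edgeR adjusted p 0.818). The cKO replicate 2 value of Sgms1 was 191 CPM, just above the lower control. Sgms2, the second sphingomyelin synthase, had at most 2 counts in any library. Abca12, the transporter that loads glucosylceramide into lamellar granules and is mutated in harlequin ichthyosis, had 210 and 202 CPM in cKO and 80.0 and 252 CPM in control. The cKO values of Abca12 were nearly equal while the controls differed 3.15-fold (95% exact interval 1.80 to 5.90, counting error only), and its log2 fold change of 0.28 (edgeR adjusted p 0.985) turned to -0.29 when control replicate 1 was dropped and was 1.38 when control replicate 2 was.

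Genes that release or degrade ceramide summed to 518 and 281 CPM in cKO against 539 and 613 CPM in control. Both cKO sums were below both control sums, but this rested on Acer1, the alkaline ceramidase of the upper epidermis: without it the other 4 genes had 279 and 191 CPM in cKO and 181 and 195 CPM in control, and the groups overlapped. Acer1 had 59 and 8 counts in the cKO libraries against 67 and 131 in control, or 239 and 89.9 CPM against 358 and 418 CPM. Acer1 was the only tested member in which both cKO values were below both control values. Its log2 fold change was the lowest of the tested members at -1.15 (SE 0.49, 95% interval -2.21 to -0.09, edgeR adjusted p 0.513), and leaving out cKO replicate 1 gave -2.15, while leaving out cKO replicate 2 gave -0.70. Exons of Acer1 share 343 bases with Gm49887 on the opposite strand, which had 0 counts. Psap, the precursor of the saposins that assist lysosomal lipid enzymes, had 170 and 67.4 CPM in cKO and 165 and 109 CPM in control. The log2 fold change of Psap was -0.09 (edgeR adjusted p 0.997). Smpd1, the acid sphingomyelinase, had 12 and 1 counts in the cKO libraries against 2 and 20 in control, so both groups had 1 library near the limit. Its log2 fold change was -0.20 (SE 1.01, edgeR adjusted p 0.995), the least precise of the tested members. Asah1, the acid ceramidase, had 1 to 5 counts per library. Smpd2, a neutral sphingomyelinase, had 10 and 8 counts in the cKO libraries against 0 and 2 in control, below the count filter. Its ratio of summed counts, scaled to the groups' totals, was 13.4 (95% exact interval 3.21 to 119, counting error only). Without a count filter Smpd2 had the lowest adjusted p of the 33 genes, 0.215 with edgeR, and with genes kept at 10 CPM or more on average it was 0.233. Exons of Smpd2 share 905 bases with Mical1 on the opposite strand, which had at most 2 counts in any library, and the sources used here do not state how strand was treated.

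Sult2b1 makes cholesterol sulfate, a lipid that regulates desquamation in the cornified layer. It had 45 and 15 counts in the cKO libraries against 9 and 22 in control, or 182 and 169 CPM against 48.0 and 70.3 CPM. The cKO libraries were close together and stood above both controls, and its mean was 175 ± 9.46 CPM for cKO (SD, n = 2) against 59.1 ± 15.7 CPM for control (SD, n = 2). Its log2 fold change of 1.54 (SE 0.52, 95% interval 0.42 to 2.66) had the lowest adjusted p of the 22 tested genes, 0.339 with edgeR, and it stayed between 1.29 and 1.87 in every alternative run. The adjusted p of Sult2b1 ranged from 0.109 to 0.998 over these alternatives. Exons of Sult2b1 share 243 bases with Lmtk3 and 78 bases with Gm31597 on the opposite strand, and these genes had at most 2 counts in any library.

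**Figure D3:**
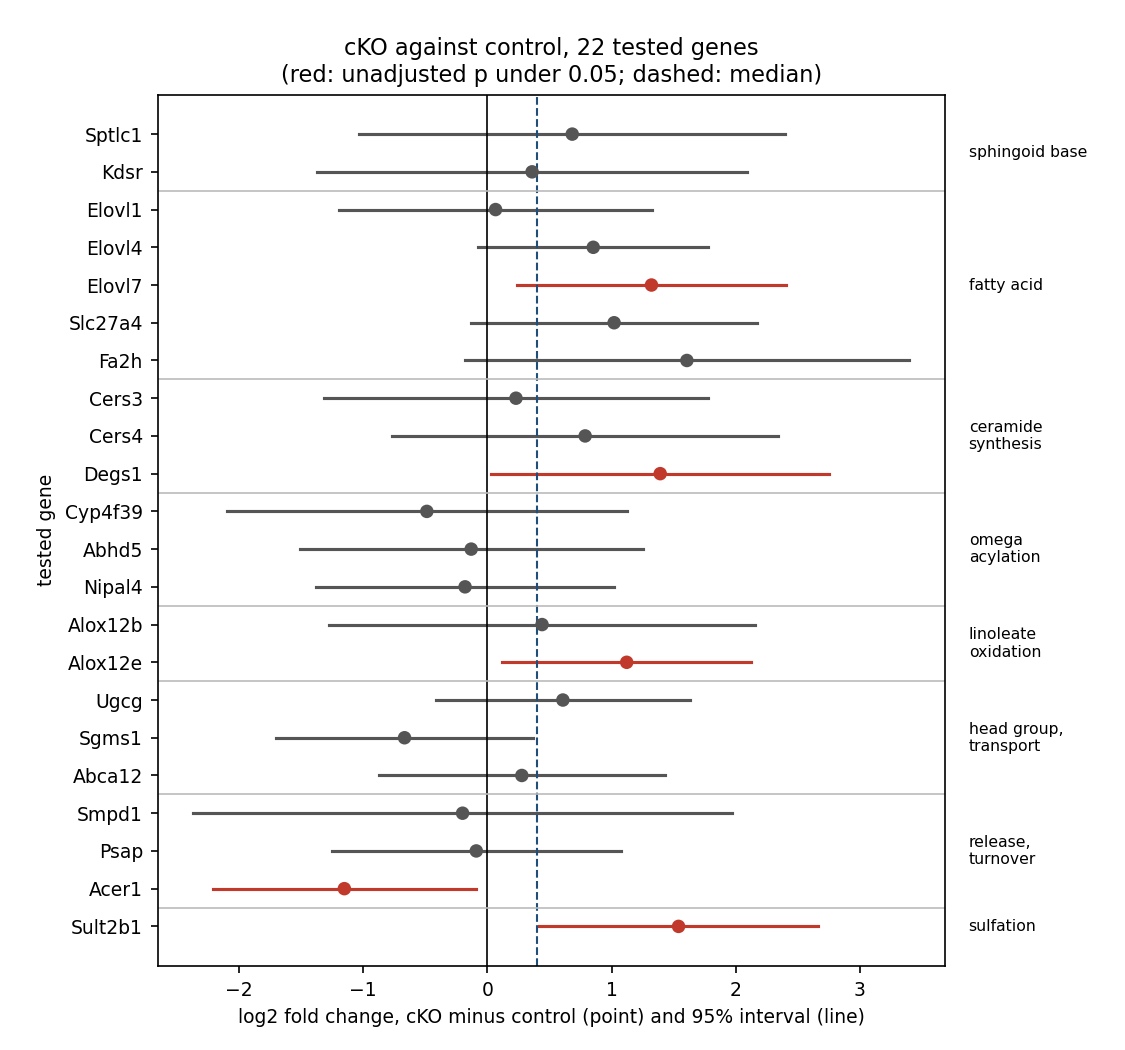
Log2 fold change of cKO against control (points) with its 95% interval (lines) for the 22 tested genes, ordered by pathway step; the dashed line is their median, 0.40. The 5 genes in red had an unadjusted p under 0.05, and 4 of them lie to the right of 0.

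Promoters are shown for the 5 genes with an unadjusted p under 0.05, since these had the lowest p-values of the members. The sequences are the 250 bases before each RefSeq start in the build GRCm38.p6, 5′ to 3′, and their coordinates belong to that build and not to the deposited table. Capitals mark matches, on either strand, to the motifs GGAAA (core of sites for NFAT, factors activated through store-operated calcium entry and calcineurin), TGANTCA (AP-1), AACCNGTT (Grainyhead-like factors) or CACCC (KLF factors).
Sult2b1 upstream promoter, chr7:45759613-45759862, minus strand: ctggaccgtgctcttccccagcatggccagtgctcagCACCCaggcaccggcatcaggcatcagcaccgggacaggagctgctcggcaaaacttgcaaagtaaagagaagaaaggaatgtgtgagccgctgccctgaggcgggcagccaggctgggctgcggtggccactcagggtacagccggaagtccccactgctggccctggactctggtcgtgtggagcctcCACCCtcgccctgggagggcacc
Sult2b1 downstream promoter, chr7:45742479-45742728, minus strand: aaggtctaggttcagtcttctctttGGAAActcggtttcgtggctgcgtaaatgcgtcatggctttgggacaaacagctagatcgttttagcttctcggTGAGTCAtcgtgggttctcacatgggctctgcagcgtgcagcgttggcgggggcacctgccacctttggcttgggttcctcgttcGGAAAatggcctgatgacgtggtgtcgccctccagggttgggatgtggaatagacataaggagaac
Alox12e promoter, chr11:70322531-70322780, minus strand: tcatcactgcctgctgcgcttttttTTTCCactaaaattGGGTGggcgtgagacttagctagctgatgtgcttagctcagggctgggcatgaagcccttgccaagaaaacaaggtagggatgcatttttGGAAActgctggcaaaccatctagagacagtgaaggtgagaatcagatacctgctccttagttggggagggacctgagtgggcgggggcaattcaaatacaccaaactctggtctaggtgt
Acer1 promoter, chr17:56982127-56982376, minus strand: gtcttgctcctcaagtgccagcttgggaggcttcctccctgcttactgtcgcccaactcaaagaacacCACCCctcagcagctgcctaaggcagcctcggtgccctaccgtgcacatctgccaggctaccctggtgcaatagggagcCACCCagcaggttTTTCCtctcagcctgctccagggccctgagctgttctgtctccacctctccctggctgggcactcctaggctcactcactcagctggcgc
Elovl7 promoter, chr13:108214154-108214403, plus strand: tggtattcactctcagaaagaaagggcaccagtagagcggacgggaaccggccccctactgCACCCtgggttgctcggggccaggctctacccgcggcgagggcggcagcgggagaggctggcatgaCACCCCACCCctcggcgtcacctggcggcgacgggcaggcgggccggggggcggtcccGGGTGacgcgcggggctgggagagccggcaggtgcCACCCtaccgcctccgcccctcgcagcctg
Degs1 promoter, chr1:182282196-182282445, minus strand: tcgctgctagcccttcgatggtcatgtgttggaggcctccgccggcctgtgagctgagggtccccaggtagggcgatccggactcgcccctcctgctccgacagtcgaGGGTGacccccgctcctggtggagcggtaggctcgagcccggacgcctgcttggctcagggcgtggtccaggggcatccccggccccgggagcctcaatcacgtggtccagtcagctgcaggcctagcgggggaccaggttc
Sult2b1 has 2 listed starts, and the upstream one had 2 CACCC matches and no GGAAA match, while the downstream one had 2 GGAAA matches and 1 TGANTCA match. Alox12e had 2 GGAAA matches and 1 CACCC match, and Acer1 had 1 GGAAA match and 2 CACCC matches. Elovl7 and Degs1 had 0 GGAAA matches, with 5 and 1 CACCC matches. Of the 30 members with a promoter in the reference, 15 had a GGAAA match, beside 58.8% of all 27025 genes with a promoter there. TGANTCA was found in 13.3% of the members (4 genes) and 7.82% of all genes, and AACCNGTT in 3.33% (1 gene) and 2.00%. CACCC was found in 70.0% and 54.5%. A gene counted when any of its listed starts had a match. The members had 42 listed starts for 30 genes, and the whole reference had 32851 for 27025 genes, so the shares are not on an equal footing. The median GC content of these windows was 61.2% for the members and 52.4% for all entries. A match is a run of letters and does not show that a factor binds there.

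The 2 control libraries differed in these genes by a median of 0.84 on the log2 scale, whatever the direction, beside 0.47 over all genes tested. In 17 of the 22 tested genes the value was higher in control replicate 2 than in control replicate 1, beside 50.8% of all genes tested, and the median signed difference was 0.71 on the log2 scale, beside 0.02 over all genes tested. For 12 of the 33 genes the exact 95% interval of the ratio of control replicate 2 to control replicate 1 lay above 1, and for none below it. These intervals cover counting error only, which replicates of many other genes exceeded too: 9 of the 22 tested members lay above 1 and 0 below, beside 14.2% and 13.4% of all tested genes. The 12 genes were Sptlc3, Kdsr, Elovl1, Elovl4, Slc27a4, Cers4, Nipal4, Aloxe3, Ephx3, Sgms1, Abca12 and Smpd1, which span 7 of the 8 steps. The cKO libraries differed in both directions. Their interval lay above 1 for cKO replicate 1 over cKO replicate 2 in 5 genes (Sptlc1, Cers3, Alox12b, Psap and Acer1) and below 1 in 3 genes (Elovl4, Slc27a4 and Alox12e), all of them tested, beside 10.9% and 13.7% of all tested genes.

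The size of the comparison varied with the library left out. Without cKO replicate 1 the median log2 fold change of the members was -0.0028 (24 tested), and without cKO replicate 2 it was 0.37 (27 tested). Without control replicate 1 the median was 0.07 (28 tested), and without control replicate 2 it was 1.07 (22 tested). Each fit without a control sets cKO against a single control library, so the gap between these fits largely restates the difference between the controls. Of the 20 members tested in both and in the fit of all 4 libraries, 15 had a higher log2 fold change without control replicate 2 than without control replicate 1. Sult2b1, Elovl4, Elovl7, Degs1, Alox12e, Fa2h, Slc27a4, Cers4, Sptlc1 and Ugcg were above 0 in both of these fits. All of these but Slc27a4 and Sptlc1 had both cKO values above both control values. Leaving out a control could hardly change their sign, so the kept sign adds no support. Sptlc1 became -0.94 without cKO replicate 1. Below 0 in both fits were Acer1 (-1.27 and -1.02) and Sgms1 (-0.91 and -0.31). Elovl1, Abca12, Alox12b, Cers3, Cyp4f39, Abhd5, Nipal4 and Psap changed sign between the fits. None of the members passed the threshold with any library left out.

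**Figure D4:**
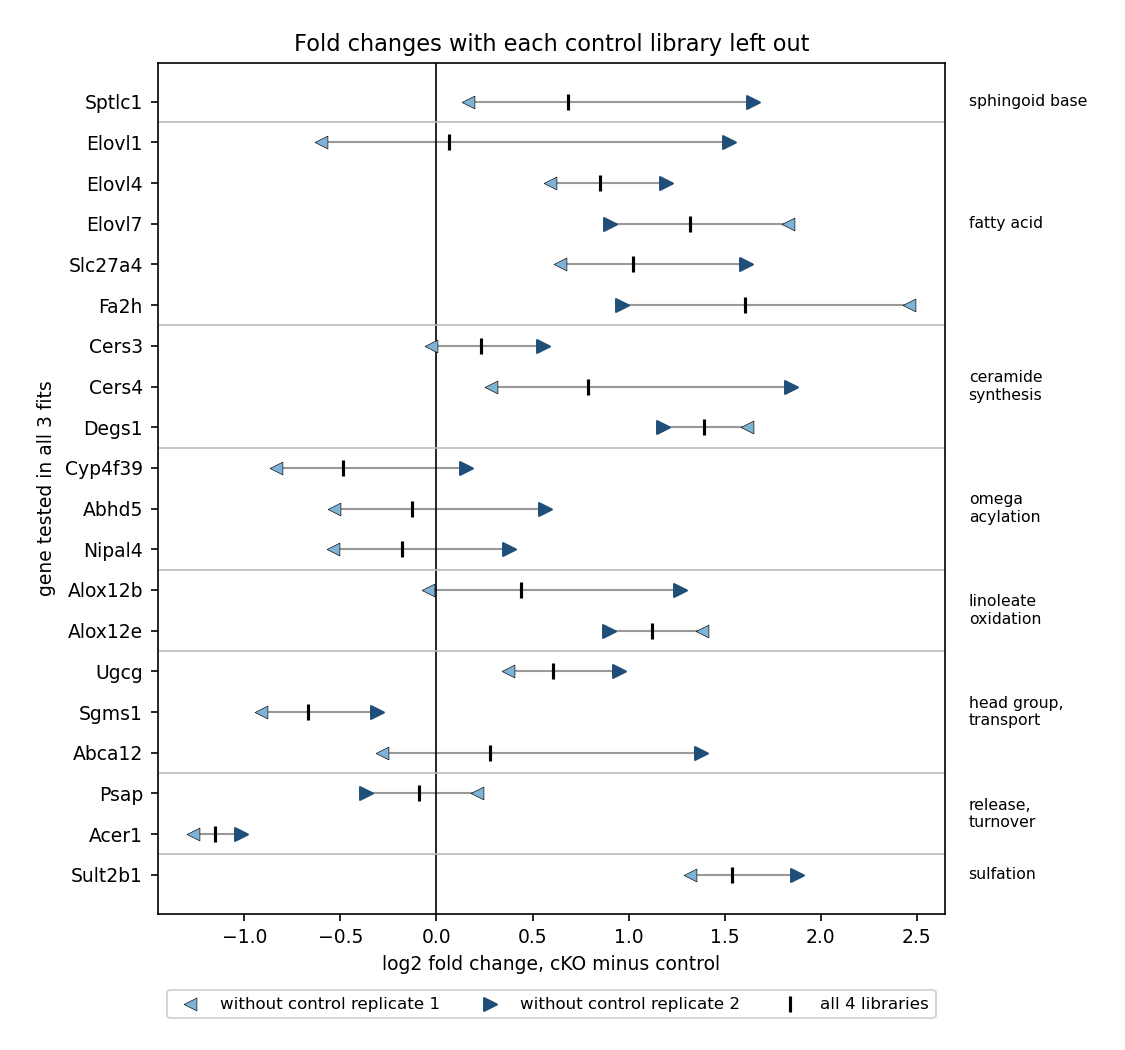
Log2 fold change of cKO against control for the 20 genes tested in all 3 fits, with all 4 libraries (bar), without control replicate 1 (light triangle) and without control replicate 2 (dark triangle). In 15 of the 20 genes the dark triangle lies to the right of the light one, as for Elovl1, which moves from -0.60 to 1.52.

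Summed levels of granular and suprabasal markers differed between the controls in the same direction as the summed level of the ceramide genes. The 15 granular layer markers, which include Flg, Hrnr and Casp14, had summed levels of 23201 and 13880 CPM in cKO and 3581 and 11704 CPM in control. 13 of the 15 had a log2 fold change above 0, beside 50.4% of all genes tested. 3 (Flg, Hrnr and Casp14) were called higher by edgeR, beside 0.660% of all genes tested. Ivl and Tgm3 had both cKO values below both control values, 615 and 528 CPM against 1371 and 1268 CPM for Ivl (log2 fold change -1.20, edgeR adjusted p 0.359) and 48.5 and 0 CPM against 123 and 160 CPM for Tgm3 (log2 fold change -2.15, edgeR adjusted p 0.368). Without Flg, which had 8968 and 5383 CPM in cKO against 107 and 313 CPM in control, the other 14 summed to 14233 and 8496 CPM against 3474 and 11391 CPM, and the groups overlapped. The 8 suprabasal markers had 17811 and 12497 CPM in cKO and 8618 and 18343 CPM in control, with 0 called. In both lists control replicate 1 was the lowest library, as it was for the sum of the ceramide genes. Between the cKO libraries both marker sums were higher in replicate 1, while the ceramide gene sums were close, at 4917 and 5035 CPM. The 8 basal markers had 9272 and 6462 CPM in cKO and 6078 and 4963 CPM in control, and control replicate 1 was not the lowest there. The higher cKO sums rested largely on Krt14, with 4355 and 3001 CPM in cKO against 928 and 865 CPM in control (log2 fold change 2.04, edgeR adjusted p 0.0507). Krt15 went the other way, with 841 and 1551 CPM against 2855 and 2098 CPM (log2 fold change -1.06, edgeR adjusted p 0.526). 7 of the 8 log2 fold changes were above 0 and 1 below, with a median of 0.22. 1 gene of this list, Postn, was called higher, beside 0.660% of all genes tested. The 8 skeletal muscle markers had 44.5 and 89.9 CPM in cKO and 1414 and 926 CPM in control. 4 of the 6 tested were called lower, beside 0.189% of all genes tested. None of the genes in these 4 lists was at 0 in all libraries. Of 5 adipocyte, 5 fibroblast and 6 immune cell markers, 1, 2 and 3 were tested and none was called, and the adipocyte marker Plin1 was at 0 in all libraries. Their sums were 28.3 and 202 CPM (adipocyte), 36.4 and 607 CPM (fibroblast) and 667 and 1854 CPM (immune) in cKO, against 107 and 25.5 CPM, 160 and 102 CPM, and 2348 and 1396 CPM in control. The part of all these cells in the ceramide gene values was not tested.

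Other genes of sphingolipid metabolism were also counted. Of 35 further genes, which include subunits and regulators of serine palmitoyltransferase, other elongases and synthases, ceramidases and the enzymes of sphingosine 1-phosphate, 18 were tested and none was called, with 12 log2 fold changes above 0 and 6 below (median 0.34). Their summed level was 3449 and 3630 CPM in cKO and 2348 and 3267 CPM in control. 3 of the 18 had an unadjusted p under 0.05, where 8.39% of all tested genes did, all with both cKO values above both control values. In all, 6 of the 18 had both cKO values above both control values, beside 18.9% of all tested genes. In 4 (Ormdl3, Cerk, Acer3 and Sphk2) both cKO values were below both control values, beside 19.6% of all tested genes. The log2 fold changes of these 4 were -0.87 to -0.54. Elovl3, an elongase of sebaceous glands and hair follicles, had 93 and 393 CPM in cKO and 48.0 and 41.5 CPM in control (log2 fold change 2.34, SE 0.68, edgeR adjusted p 0.195). Its highest value was in cKO replicate 2, the library with the highest sebaceous marker sum (2933 CPM). In cKO replicate 1, the library with the lowest such sum (1322 CPM), Elovl3 was also above both controls. The part of sebaceous cells in the Elovl3 values was not tested. Smpd3, a neutral sphingomyelinase, had 235 and 202 CPM in cKO and 48.0 and 121 CPM in control (log2 fold change 1.32, edgeR adjusted p 0.476). Sgpl1, the lyase that ends sphingoid base breakdown, had 239 and 214 CPM in cKO and 101 and 99.0 CPM in control (log2 fold change 1.18, edgeR adjusted p 0.469).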

How the data were processed

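The authors deposited 1 table of raw counts, whole numbers for each gene and library, which also lists exon coordinates and a summed exon length in bases, per the file headers. Libraries were made from total RNA with the QIAseq UPX 3' Transcriptome Kit and converted for MGI sequencing, per the labels' protocols. Per the submitters' processing notes, Trim Galore 0.6.7, Trimmomatic 0.39, cutadapt 3.7, STAR 2.7.10a and featureCounts 2.0.1 were used with GRCm39. The treatment of molecular identifiers, strand and reads with several alignments is not given in the sources used here. 0 per-sample columns were left unused.

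Library titles gave the genotype groups. Counts as deposited were tested in edgeR 4.0.16 (R 4.3.3) with filterByExpr (minimum count 10, minimum total count 15; 4243 genes with 87.6% of the counts), TMM, estimateDisp, glmQLFit and glmQLFTest, genotype as the only term, and Benjamini-Hochberg adjustment over all genes tested. Standard errors were derived from F as the fold change (log2, unsigned) over its root, and 95% intervals use the fit's degrees of freedom. CPM are counts scaled to a common total of the TMM-adjusted counts in tested genes. Exact intervals of count ratios are Clopper-Pearson intervals. Members and lists were chosen with earlier results of these data known, so no list was tested as a set. Members were given in full when they passed the filter and had an unadjusted p under 0.05, 1 of the 5 largest or smallest fold changes, 1 of the 5 highest mean CPM values, or the highest mean CPM of their step. The others were given by their values. Alternatives used DESeq2 1.42.0 and limma 3.58.1, other scalings and filters, the replicate number as a block, and each library left out. A blastn 2.17.0 search of GENCODE M21 transcripts found 0 members with another gene at 95% identity or more over 150 bases, and 10 members share exon bases with a gene on the opposite strand. Promoters came from RefSeq (GRCm38.p6), in which 30 of 33 members matched by symbol; Aloxe3, Fa2h and Asah1 did not. The 50 bases after each start were left out.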

Additional observations from a re-analysis of the deposited data

How the results depend on the processing

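With 2 libraries in each group and shallow depth, only large differences can pass the threshold, and genes with few counts cannot be compared. None of the tested members passed the threshold in any of the 14 alternatives, and 11 of 22 kept the sign of their log2 fold change in all of them. Of 306 member values in alternatives 23 changed sign. The lowest adjusted p of a member was 0.0825 (Acer1, with the crossed block), and the adjusted p of Acer1 ranged from there to 1.00 over the alternatives. Calls over all genes were 49 higher and 26 lower with no count filter, 40 and 15 with genes kept at 10 CPM or more on average, 12 and 3 with limma-voom, and 26 and 15 with scaling by library totals, where the share of higher among called genes was 63.4% instead of 77.8%. That scaling moved the median of all genes to -0.24 and that of the members to 0.17, and Elovl1 to -0.18. Elovl1 was -0.0042 with no count filter and Psap 0.012 with limma-voom. With 1 library left out, calls ranged from 34 to 59 higher and from 8 to 34 lower, and the median of the members from -0.0028 to 1.07. Over the same fits the log2 fold change ranged from -0.94 to 1.65 for Sptlc1, -0.25 to 0.37 for Kdsr, -0.60 to 1.52 for Elovl1, -3.47 to 0.98 for Cers3, -0.97 to 0.15 for Cyp4f39, -0.53 to 0.56 for Abhd5, -0.54 to 0.38 for Nipal4, -2.34 to 1.27 for Alox12b, -0.29 to 1.38 for Abca12, -1.79 to 0.29 for Smpd1 and -1.04 to 0.34 for Psap. A group left with 1 library was assumed to vary like the other. Kdsr and Smpd1 were not tested without control replicate 2. The cause of these changes was not tested.

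The titles number the libraries 1 and 2 in both groups, but nothing says that equal numbers share a mouse, litter or day, and the deviations of same-numbered libraries correlated at -0.20 across genes. With the replicate number as a block there were 16 genes called higher and 1 lower, no member was called, and Cers3 was -0.31, Abhd5 0.025 and Smpd1 0.039. With crossed numbers in the block, chosen after seeing the data, there were 90 and 57, and Cers3 was -0.12.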
